A study of Mus musculus with 12 samples.

Results

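Genomic imprinting leaves only the copy of a gene inherited from one parent active, and many imprinted genes act on growth of the fetus. Several of them change together in mouse tissues, and this set has been described as an imprinted gene network. The set followed here consists of H19, Meg3, Rian, Mirg, Dlk1, Peg3, Mest, Plagl1, Ndn and Grb10, chosen as imprinted growth genes and noncoding RNAs with links to embryonic muscle. Of these 10 genes, 8 were matched to one of the 37287 gene IDs of the count tables. Rian and Mirg were not matched to a row and were not analysed here beyond the small RNA genes that lie inside them. Whether any ID without a symbol belongs to them was not checked.

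The cells were mouse embryonic fibroblasts that lack both myogenic factors (MyoD-/-; Myf5-/-, called M&M MEFs). MyoD and Myf5 are basic helix-loop-helix factors that can turn fibroblasts towards skeletal muscle. Per the labels, cells were infected with lentivirus in the presence of polybrene and then kept in differentiation medium until harvest. The 12 poly(A) RNA libraries were 2 with lenti-MyoD (2x and 1x virus), 2 with lenti-Myf5 (2x and 1x), 1 with lenti-Chimera (1x), 1 with a second batch of lenti-MyoD (1x, balanced against the Chimera virus), 5 with lenti-GFP (multiplicity of infection, MOI, of 15, 30, 60 and 120, and a 1x dose), and 1 untransduced. The labels do not say what the Chimera protein consists of, which MOI the 1x dose equals, or whether libraries came from separate cultures or cell isolates. P-values here measure the spread between these libraries, which may be technical, and 2x and 1x libraries of a factor were taken as its 2 replicates although their doses differ.

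Total counts, in M (mega), were 68.3 to 81.5 M in the MyoD, Myf5, 1x GFP and untransduced libraries, 17.9 to 22.4 M in the 4 libraries of the MOI series, and 25.1 and 23.7 M in the Chimera and second-batch MyoD libraries. The Myod1 row held 617 and 309 CPM (counts scaled to an equal library total) with 2x and 1x MyoD and 324 CPM with second-batch MyoD, against 5.21 to 5.99 CPM in the GFP, Myf5 and untransduced libraries. The Myf5 row held 249 and 149 CPM with 2x and 1x Myf5, against 11.9 to 24.4 CPM in the libraries with MyoD, GFP or no virus. The rows of the deleted genes were thus not at 0, and gene-level counts do not show where in the gene these reads lie. The Chimera library had 22.1 CPM in the Myod1 row and 165 CPM in the Myf5 row. All 10 fibroblast markers examined were detected, and their summed level was 12824 to 27848 CPM. The 8 skeletal muscle markers summed to 2330 and 849 CPM with 2x and 1x MyoD, 246 and 108 CPM with 2x and 1x Myf5, and 2.71 to 5.01 CPM in the GFP and untransduced libraries. In such bulk RNA, fewer cells that express a gene and less RNA per cell cannot be told apart.

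Within the set, 6 genes have protein products with separate roles. Dlk1 is a transmembrane ligand-like protein that restrains differentiation, and Grb10 is an adaptor that damps insulin and insulin-like growth factor receptor signals. Peg3 and Plagl1 are zinc-finger transcription factors, and Plagl1 is held to sit upstream of other imprinted genes. Ndn (necdin) is a MAGE-family protein. Mest encodes a protein of the alpha/beta hydrolase fold. H19 is a noncoding RNA that hosts miR-675, while Meg3, Rian and Mirg are maternally expressed noncoding RNAs of the Dlk1-Dio3 domain that host many miRNAs and small nucleolar RNAs.

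Of the genes inside members with a count in at least 1 library, together with Mir335 inside Mest, RefSeq (GRCm38.p6) lists 19 as miRNA genes. They give 35 mature miRNAs with 34 distinct seeds. Other annotated miRNA genes without a row or a count were left out of these numbers. Among those included, 1 seed is shared, by miR-453 and miR-496a-5p of Mirg. The sequences of those hosted by H19, Mest and Meg3 are given because these hosts carry the differences described next. From Rian and Mirg 2 are given because these hosts were not matched to a row. Capitals mark the seed, bases 2 to 8.
miR-675-5p (H19): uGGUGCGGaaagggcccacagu
miR-675-3p (H19): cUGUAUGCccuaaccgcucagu
miR-335-5p (Mest): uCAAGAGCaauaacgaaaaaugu
miR-335-3p (Mest): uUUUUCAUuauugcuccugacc
miR-770-5p (Meg3): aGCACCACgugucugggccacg
miR-770-3p (Meg3): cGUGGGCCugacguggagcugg
miR-1906 (Meg3): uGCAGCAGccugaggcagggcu
miR-370-3p (Rian): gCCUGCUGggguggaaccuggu
miR-410-3p (Mirg): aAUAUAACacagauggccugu
Libraries selected for poly(A) do not measure mature miRNAs, so the counts below are those of the host RNAs or of longer transcripts over the miRNA genes. The pair of miR-675 arms lies at chr7:142577078-142577099 and chr7:142577112-142577133, both on the minus strand, inside an exon of H19.

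H19 and Mest were the members with the highest fold changes with MyoD. H19 reached 294 and 203 CPM with 2x and 1x MyoD and 56.9 and 35.6 CPM with 2x and 1x Myf5. In GFP libraries it stood at 34.5, 32.6, 27.1 and 34.6 CPM at an MOI of 15, 30, 60 and 120 and at 1.36 CPM at the 1x dose, and without virus at 2.76 CPM. Every MyoD library was thus above every GFP library, and the lower Myf5 library was above the highest GFP library by about 1 CPM. The 4 MOI libraries lay together, while the 1x GFP library lay beside the untransduced one.

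Against all 5 GFP libraries, H19 (ENSMUSG00000000031.9) rose by a log2 fold change of 3.35 ± 0.76 with MyoD (SE, edgeR quasi-likelihood test, adjusted p = 0.00807). With Myf5 the log2 fold change was 0.90 ± 0.79, short of the threshold of 0.05 (edgeR adjusted p = 0.469). With the 1x GFP library alone as control, that arm is 1 library, which is assumed in all such fits to vary like the other groups and which for H19 lay far below the other GFP libraries. Under that assumption H19 rose with both factors in edgeR, by 7.52 ± 0.46 for MyoD (adjusted p = 0.000369) and by 5.07 ± 0.42 for Myf5 (adjusted p = 0.00336). The direct difference of MyoD from Myf5 was 2.45 ± 1.00 in log2 (edgeR adjusted p = 0.176). When the 4 MOI libraries formed a separate group in the fit, a choice made after seeing the data, the same difference was 2.45 ± 0.25 (adjusted p = 0.00896). The MyoD call was lost without the 2x MyoD library (edgeR log2 fold change of 3.04, adjusted p = 0.0717).

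The row of the miRNA gene Mir675, which lies within H19, had counts of 2084 and 1537 with 2x and 1x MyoD and 364 and 205 with 2x and 1x Myf5. It had 63, 50, 57 and 58 counts along the MOI series, 4 counts in the 1x GFP library and 11 without virus. In CPM these were 27.1 and 19.1 with MyoD, 5.31 and 3.001 with Myf5, 2.55 to 3.19 at the 4 MOIs and 0.0491 at 1x GFP. The Mir675 row was counted beside H19 over the same exon, and is therefore no independent readout of it.

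Mest (ENSMUSG00000051855.8) had 38.0 and 21.5 CPM with 2x and 1x MyoD and 6.64 and 3.79 CPM with 2x and 1x Myf5. GFP libraries held 1.77, 2.35, 1.56 and 2.29 CPM at an MOI of 15, 30, 60 and 120 and 1.93 CPM at 1x, and the untransduced library 1.71 CPM. The 3 sets of libraries did not overlap, and here the 1x GFP library fell within the range of the MOI libraries. Mest rose with MyoD by 3.97 ± 0.27 in log2 (edgeR adjusted p = 3.81e-05) and was the 1 member called under all 16 alternatives tried, with log2 fold changes of 3.48 to 4.34. It rose with Myf5 by 1.43 ± 0.28 (edgeR adjusted p = 0.0231) and with MyoD above Myf5 by 2.54 ± 0.34 (edgeR adjusted p = 0.0229). The Myf5 call was lost in edgeR against 1x GFP alone (log2 fold change of 1.42, adjusted p = 0.166), without the 2x Myf5 library (0.97, adjusted p = 0.354) and without the library at an MOI of 15, 30 or 60 (1.36 to 1.49, adjusted p of 0.0664, 0.0566 and 0.0644). The call of MyoD above Myf5 was lost without the 2x MyoD, 2x Myf5 or 1x Myf5 library, or the one at an MOI of 30 or 60 (log2 of 2.04 to 3.002, edgeR adjusted p of 0.0805, 0.0583, 0.198, 0.0529 and 0.0541).

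Mest overlaps Copg2 on the other strand in the GENCODE vM21 annotation, and the sources used here do not say whether reads were counted by strand. Copg2, which encodes a coat protein of intracellular transport vesicles, stood at 118 and 90.9 CPM with 2x and 1x MyoD, against 52.6 to 57.9 CPM in GFP libraries. Its log2 fold change with MyoD was 0.97 ± 0.10 (edgeR adjusted p = 0.000227). Without strand, reads of Mest and of Copg2 cannot be told apart where the genes overlap. The row of Mir335, inside Mest, had no count in any library.

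The promoter table of RefSeq (250 bases before to 50 after each start) had 13 entries for 9 of the 10 members. H19 had no entry, so its promoter was not searched. The Mest entries that start at chr6:30737800 and chr6:30737803 overlap almost fully, so the windows are not all separate. MyoD and Myf5 bind E-boxes, and the forms CAGCTG and CAGGTG were searched on both strands (CAGCTG reads the same on both; CAGGTG reads CACCTG on the other). Only 1 of these 13 windows, 7.69%, held either form, against 32.95% of all 32851 promoters (16.3% with CAGCTG and 20.21% with CAGGTG). It was the most upstream of 3 Mest entries, at chr6:30733256-30733555 on the plus strand, shown with the matches in capitals because Mest is the member called most steadily.
Mest promoter: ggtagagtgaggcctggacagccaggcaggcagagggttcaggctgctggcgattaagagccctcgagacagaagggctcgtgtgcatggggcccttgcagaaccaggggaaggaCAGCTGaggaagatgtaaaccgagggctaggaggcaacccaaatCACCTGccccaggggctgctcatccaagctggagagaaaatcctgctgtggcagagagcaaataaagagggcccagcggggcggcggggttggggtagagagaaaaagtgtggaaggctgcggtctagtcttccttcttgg
A match describes these letters and shows no binding, and the counts do not say which start the Mest RNA used.

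**Figure D1:**
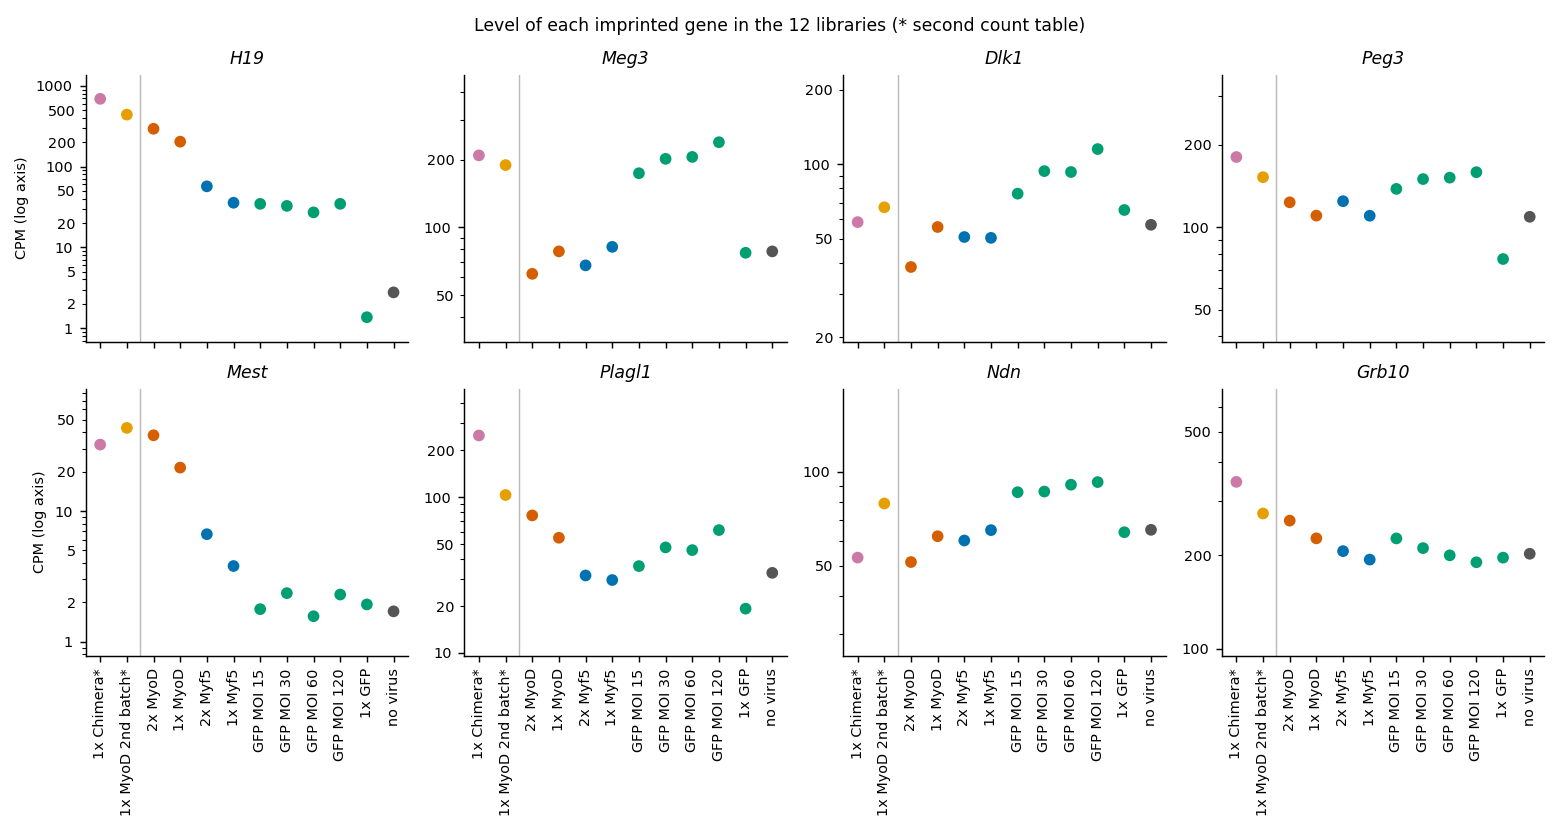
Level of each of the 8 matched genes in CPM (log axis, 1 point per library) in the 12 libraries, with the 2 libraries of the second count table left of the grey line. H19 and Mest are higher in the MyoD libraries than in all GFP libraries, and for H19, Meg3, Peg3 and Ndn the 1x GFP library (77.1 CPM for Meg3) lies apart from the 4 MOI libraries (174 to 239 CPM).

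Among the 2 zinc-finger factors, Plagl1 (ENSMUSG00000019817.11) had 76.3 and 54.9 CPM with 2x and 1x MyoD and 31.4 and 29.4 CPM with 2x and 1x Myf5. In the GFP series it had 36.1, 47.6, 45.7 and 61.5 CPM at an MOI of 15, 30, 60 and 120, with 19.2 CPM at 1x GFP and 32.7 CPM without virus. The lower MyoD library was thus below the GFP library at an MOI of 120 and above the other 4. The log2 fold change with MyoD was 0.71 ± 0.33 against all GFP libraries (edgeR adjusted p = 0.113) and 1.78 ± 0.30 against 1x GFP (edgeR adjusted p = 0.00574). Without the 1x GFP library it was 0.54 ± 0.20 (edgeR adjusted p = 0.0407). With Myf5 the log2 fold change was −0.42 ± 0.35 against all GFP libraries (edgeR adjusted p = 0.447) and 0.65 ± 0.29 against 1x GFP (edgeR adjusted p = 0.293).

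Peg3 (ENSMUSG00000002265.8) had 123 and 110.3 CPM with 2x and 1x MyoD and 124 and 110.1 CPM with 2x and 1x Myf5. It had 138, 149.9, 152 and 159 CPM along the MOI series, 76.6 CPM at 1x GFP and 109 CPM without virus. Both factors therefore fell between the 1x GFP library and the MOI libraries. The direction with MyoD turned with the control, at −0.15 ± 0.23 against all GFP libraries (edgeR adjusted p = 0.624) and 0.62 ± 0.12 against 1x GFP (edgeR adjusted p = 0.00835). Without the 1x GFP library Peg3 was lower with MyoD, at −0.28 ± 0.08 (edgeR adjusted p = 0.0199). For Myf5 the log2 fold changes were −0.17 ± 0.23 (edgeR adjusted p = 0.660) and, against 1x GFP, 0.60 ± 0.12 (adjusted p = 0.0597).

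Meg3 and Dlk1, from the Dlk1-Dio3 domain, were lower with both factors than in the MOI libraries. Meg3 (ENSMUSG00000021268.10) had 62.1 and 78.2 CPM with 2x and 1x MyoD and 67.7 and 81.9 CPM with 2x and 1x Myf5. It had 174, 202, 206 and 239 CPM at an MOI of 15, 30, 60 and 120, 77.1 CPM at 1x GFP and 78.2 CPM without virus. Libraries with a factor thus overlapped the lowest GFP library and lay below the other 4. Meg3 fell with MyoD against all GFP libraries, with a log2 fold change of −1.30 ± 0.36 (edgeR adjusted p = 0.0186). Against 1x GFP the value was −0.13 ± 0.19 (edgeR adjusted p = 0.633). With Myf5 the log2 fold changes were −1.22 ± 0.36 against all GFP libraries (edgeR adjusted p = 0.0741) and −0.06 ± 0.19 against 1x GFP (adjusted p = 0.906). The Meg3 call with MyoD was lost in edgeR without the 1x MyoD library (−1.45, adjusted p = 0.0590) and without the 2x MyoD library (−1.16, adjusted p = 0.163).

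Dlk1 (ENSMUSG00000040856.11) had 38.5 and 55.8 CPM with 2x and 1x MyoD and 50.9 and 50.5 CPM with 2x and 1x Myf5. GFP libraries had 76.1, 93.9, 93.1 and 115 CPM at an MOI of 15, 30, 60 and 120 and 65.4 CPM at 1x, and the untransduced library 57.0 CPM. All 4 factor libraries lay below all GFP libraries. Dlk1 fell with MyoD against all GFP libraries by 0.86 in log2 (SE 0.21, edgeR adjusted p = 0.0106), and against 1x GFP the value was −0.47 ± 0.23 (edgeR adjusted p = 0.159). With Myf5 the values were −0.77 ± 0.21 (edgeR adjusted p = 0.0585) and −0.38 ± 0.23 (adjusted p = 0.440). Without the 1x or the 2x MyoD library the adjusted p of Dlk1 with Myf5 was 0.0478 or 0.0471 in edgeR, and without the 2x MyoD library its fall with MyoD was not called (−0.63, adjusted p = 0.136).

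For Rian and Mirg the small RNA genes inside them gave a partial view. The 16 rows inside Rian, 12 of them small nucleolar RNAs, summed to 3.44 and 3.87 CPM with 2x and 1x MyoD and 3.85 and 4.20 CPM with 2x and 1x Myf5. They summed to 5.54 to 8.09 CPM in the MOI libraries, 4.40 CPM at 1x GFP and 5.95 CPM without virus. The 12 rows inside Mirg summed to 0.690 and 0.869 CPM with 2x and 1x MyoD and 0.277 and 0.747 CPM with 2x and 1x Myf5, against 1.52 to 2.29 CPM in the MOI libraries, 0.503 CPM at 1x GFP and 0.729 CPM without virus. Behind these sums stood 88 to 433 counts per library for Rian and 19 to 70 counts for Mirg, so no test was made. In the library at an MOI of 15, 97 of the 114 counts inside Rian lay in 1 small nucleolar RNA row, Gm24895. For both Rian and Mirg, every MOI library was above every MyoD, Myf5 and 1x GFP library.

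Of the 7 genes listed for the Dlk1-Dio3 domain, 5 were matched to a row and 4 passed the filter on low counts. All 4 fell with MyoD against all GFP libraries, beside 20.9% of all genes, with a median log2 fold change of −1.23 beside −0.03 over all genes tested. Against 1x GFP 1 of the 4 fell, beside 15.4% of all genes, and the median was −0.54, beside −0.01 over all genes. That 1 gene was Begain, at −0.82 ± 0.23 (edgeR adjusted p = 0.0280). Rtl1, a retrotransposon-derived gene of the domain, was at −1.90 ± 0.44 against all GFP libraries (edgeR adjusted p = 0.00887) and −0.61 ± 0.29 against 1x GFP (edgeR adjusted p = 0.137). With Myf5 edgeR called 0 of the 4 under either control. Against all GFP libraries all 4 had an unadjusted p under 0.05 in edgeR, beside 3945 of 13825 genes. DESeq2 called all 4 lower, beside 7.84% of all genes, and the smallest edgeR adjusted p was 0.0515, for Rtl1. Against 1x GFP 0 had an unadjusted p under 0.05.

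Ndn (ENSMUSG00000033585.4) had 51.3 and 62.1 CPM with 2x and 1x MyoD and 60.2 and 65.0 CPM with 2x and 1x Myf5. It had 86.1, 86.5, 91.0 and 92.8 CPM along the MOI series, 64.0 CPM at 1x GFP and 65.1 CPM without virus. The MyoD libraries lay below all GFP libraries, the upper one by about 2 CPM. Ndn fell with MyoD against all GFP libraries, at −0.51 ± 0.13 in log2 (edgeR adjusted p = 0.0128), and stood at −0.17 ± 0.10 against 1x GFP (edgeR adjusted p = 0.244). With Myf5 it was at −0.39 ± 0.13 (edgeR adjusted p = 0.0957) and −0.05 ± 0.10 against 1x GFP (adjusted p = 0.856). Without the 2x MyoD library the fall with MyoD was not called, at −0.40 ± 0.17 (edgeR adjusted p = 0.151).

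Grb10 (ENSMUSG00000020176.10) varied least over the first table, with an SD of 0.129 in log2 CPM. It had 259 and 227 CPM with 2x and 1x MyoD and 206 and 194 CPM with 2x and 1x Myf5, against 227, 211, 199.9 and 189.9 CPM along the MOI series, 197 CPM at 1x GFP and 202 CPM without virus. The 1x MyoD library and the library at an MOI of 15 were level. Grb10 rose with MyoD by 0.30 ± 0.08 in log2 (edgeR adjusted p = 0.0197), with 0.31 ± 0.12 against 1x GFP (edgeR adjusted p = 0.0812). With Myf5 the values were 0.00 ± 0.08 (edgeR adjusted p = 0.986) and 0.01 ± 0.12 (adjusted p = 0.972). Without the 2x MyoD library the rise with MyoD was not called, at 0.18 ± 0.10 (edgeR adjusted p = 0.231).

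In all, against all 5 GFP libraries edgeR called 3 of the 8 genes higher with MyoD (H19, Mest and Grb10) and 3 lower (Meg3, Dlk1 and Ndn). The same test called 21.4% of all 13825 genes higher and 20.9% lower, and the members' median log2 fold change was 0.07. Against 1x GFP it called 4 higher (H19, Mest, Plagl1 and Peg3) and 0 lower, beside 15.1% and 15.4% of all genes, with a median of 0.47. After these 4, Grb10 had the smallest unadjusted p against 1x GFP, short of the adjusted threshold. Without the 2x MyoD library only Mest was called among the 8, higher, beside 8.45% of all genes higher and 4.92% lower. Without the 1x GFP library 4 were called in each direction, beside 30.1% and 28.3% of all genes. With a term for the 2x dose in the fit, H19 and Mest were called higher and Dlk1 lower, beside 13.7% and 11.6% of all genes, and Meg3, Ndn and Grb10 were not called.

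With Myf5, 1 of the 8 was called higher (Mest) and 0 lower against all GFP libraries, beside 3.81% and 2.29% of all genes. By unadjusted p under 0.05 in edgeR it was 4 of the 8 (Mest, Dlk1, Meg3 and Ndn), beside 3945 of 13825 genes. DESeq2 called Mest higher and Dlk1, Meg3 and Ndn lower, beside 7.66% and 7.84% of all genes. Against 1x GFP 1 was called higher (H19) and 0 lower, beside 1.03% and 0.152%. Without the 1x GFP library edgeR called 1 of the 8 higher (Mest) and 5 lower (Dlk1, Meg3, Ndn, Peg3 and Plagl1) with Myf5, beside 18.2% and 18.5% of all genes. Both factors were compared with the same GFP libraries, so the 2 sets of fold changes are not independent. Fibroblast markers moved beside these calls, with 7 of 10 lower with MyoD and 3 of 10 lower with Myf5 against all GFP libraries, and so did muscle markers, with 8 of 8 and 5 of 8 higher. Their part in the results was not tested.

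**Figure D2:**
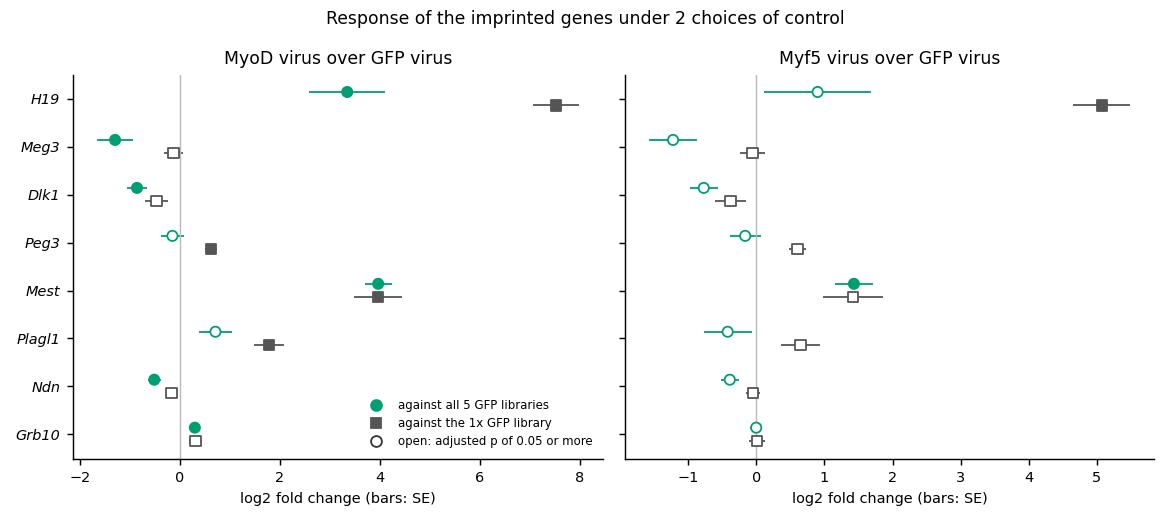
Log2 fold change with SE of the 8 genes with MyoD (left) and Myf5 (right), against all 5 GFP libraries (green circles) and against the 1x GFP library alone (grey squares), filled where the edgeR adjusted p was under 0.05. Mest has almost the same MyoD value under both controls (3.97 and 3.96), whereas Meg3 lies at −1.30 and −0.13.

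MyoD set directly against Myf5 asks whether the factors differ in their effect on these genes. Of the 8, edgeR called 1 higher with MyoD (Mest) and 0 lower, beside 4.21% and 1.29% of all genes. By unadjusted p under 0.05 in edgeR, H19, Plagl1 and Grb10 also differed, which made 4 of the 8 beside 3378 of 13825 genes. Plagl1 was higher with MyoD by 1.13 ± 0.41 in log2 (edgeR adjusted p = 0.136) and Grb10 by 0.30 ± 0.10 (edgeR adjusted p = 0.114). DESeq2 called Mest and Grb10 (adjusted p = 0.041 for Grb10), beside 12.7% of all genes. The groups of libraries did not overlap for H19, Mest, Plagl1 and Grb10. How often this holds over all genes, with 2 libraries a side, was not counted, so it does not set these genes apart. With the MOI libraries fitted as a separate group, 3 were called higher (H19, Mest and Plagl1) and 0 lower, beside 10.7% and 8.74% of all genes, since the 4 MOI libraries and the 1x GFP library then no longer add their distance to the estimate of the spread. Under that fit Plagl1 had a log2 difference of 1.13 ± 0.23 (edgeR adjusted p = 0.0180). Meg3, Dlk1, Peg3 and Ndn had differences of −0.12 to 0.02, with SEs of 0.15 to 0.40.

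The 2x dose gave more H19 and Mest than the 1x dose with both factors, and to a lesser degree more Plagl1, Peg3 and Grb10. For H19 the ratio of 2x to 1x was 1.44 with MyoD (exact 95% counting interval 1.42 to 1.47) and 1.60 with Myf5 (1.52 to 1.68). For Mest it was 1.77 with MyoD (1.67 to 1.88) and 1.75 with Myf5 (1.501 to 2.05). Plagl1 had ratios of 1.39 with MyoD (1.34 to 1.45) and 1.07 with Myf5 (1.01 to 1.14). For Peg3 they were 1.12 (1.09 to 1.15) and 1.13 (1.10 to 1.17), and for Grb10 1.14 (1.12 to 1.16) and 1.06 (1.04 to 1.09). Dlk1 had ratios of 0.689 with MyoD (0.658 to 0.722) and 1.01 with Myf5 (0.961 to 1.06), and Meg3 of 0.794 (0.765 to 0.825) and 0.827 (0.796 to 0.860). Those of Ndn were 0.826 (0.792 to 0.861) and 0.926 (0.887 to 0.966). These intervals cover counting error only, with 1 library per dose.

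As a dose effect shared by both factors, edgeR called 0 of the 8, beside 0.0217% of all genes. Mest had the smallest p of the 8, at a log2 difference of 0.84 ± 0.17 (edgeR unadjusted p = 0.00109, adjusted p = 0.129). It was the only 1 of the 8 under an unadjusted p of 0.05, beside 1528 of 13825 genes. DESeq2 called Mest (adjusted p = 0.000458), beside 2.1% of all genes. With the MOI libraries fitted as a separate group, edgeR called Mest at 0.84 ± 0.13 (adjusted p = 0.00958) and H19 at 0.62 ± 0.10 (adjusted p = 0.0107), beside 7.37% of all genes.

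GFP virus set against no virus asks what transduction alone does. edgeR called 0 of the 8 with all 5 GFP libraries, beside 8.35% of all genes, and 0 of the 8 with 1x GFP, beside 4.94%. DESeq2 also called 0 with all GFP libraries, beside 18.2% of all genes. The smallest unadjusted p-values of the 8 were those of H19 and Meg3 with all GFP libraries and of Peg3 and Plagl1 with 1x GFP. All fell short of the adjusted threshold. H19 had a log2 difference of 3.15 ± 1.39 with all GFP libraries (edgeR adjusted p = 0.168) and −1.02 ± 0.47 with 1x GFP (adjusted p = 0.260). Without the 1x GFP library 5 of the 8 were called higher than without virus, namely H19 (3.48 ± 0.37), Meg3 (1.33 ± 0.19), Dlk1 (0.67 ± 0.22), Peg3 (0.40 ± 0.11) and Ndn (0.39 ± 0.10), and 0 lower. The same fit called 18% of all genes higher and 19.3% lower. The untransduced group is 1 library, assumed in the fit to vary like the others. Without the 1x GFP library, the GFP side was the MOI series alone, at 17.9 to 22.4 M counts against 72.7 M without virus. Virus, depth and any difference in when the cells were treated cannot be told apart in that fit.

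Among the GFP libraries themselves, the 4 of the MOI series were set against the 1x one in a comparison added after seeing that the 1x library stood apart. Its p-values therefore restate that observation, and they rest on 1 library on the 1x side, assumed to vary like the other groups. Of the 8 genes, 5 were higher in the MOI libraries (H19, Meg3, Plagl1, Peg3 and Ndn) and 0 lower, beside 12.1% and 12.2% of all genes, with a median of 0.69 beside 0.00 for all genes. H19 averaged 32.2 ± 3.53 CPM in the MOI libraries (SD, n = 4) and had 1.36 CPM in the 1x library, a log2 difference of 4.50 ± 0.40 (edgeR adjusted p = 0.000652). Meg3 averaged 205 ± 26.7 CPM (SD, n = 4) against 77.1 CPM, at 1.36 ± 0.19 in log2 (edgeR adjusted p = 0.00285). Plagl1 differed by 1.26 ± 0.28 (edgeR adjusted p = 0.0155), Peg3 by 0.91 ± 0.11 (adjusted p = 0.00201) and Ndn by 0.42 ± 0.10 (adjusted p = 0.0174). Dlk1 was at 0.48 ± 0.22 (edgeR adjusted p = 0.151), Mest at −0.01 ± 0.43 and Grb10 at 0.02 ± 0.11. The MOI libraries also had fewer counts in total, 17.9 to 22.4 M against 81.5 M in the 1x library. Depth, dose and any difference in when the cells were treated cannot be told apart here.

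Along the series, 4 of the 8 genes rose with MOI and 1 fell, beside 4.06% and 3.42% of 13383 genes. Per doubling of the MOI, Plagl1 rose by 0.23 ± 0.03 in log2 (edgeR adjusted p = 0.000257), Dlk1 by 0.18 ± 0.02 (adjusted p = 0.000115), Meg3 by 0.14 ± 0.02 (adjusted p = 0.000115) and Peg3 by 0.06 ± 0.02 (adjusted p = 0.0425). Grb10 fell by 0.08 (SE 0.02, edgeR adjusted p = 0.00463). Ndn had a slope of 0.04 ± 0.02 (edgeR adjusted p = 0.240), H19 of −0.02 ± 0.04 (adjusted p = 0.813) and Mest of 0.06 ± 0.12 (adjusted p = 0.838). The series has 1 library per MOI, so the fit has 2 residual degrees of freedom. The Peg3 call was lost without the library at an MOI of 15, 30 or 120 (slopes 0.04, 0.07 and 0.07, edgeR adjusted p of 0.654, 0.0731 and 0.311) and in DESeq2 (adjusted p = 0.288). The Grb10 call was lost without the library at an MOI of 15 (−0.07, adjusted p = 0.278), and H19 was called lower without the one at 120 (−0.17, adjusted p = 0.0200).

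**Figure D3:**
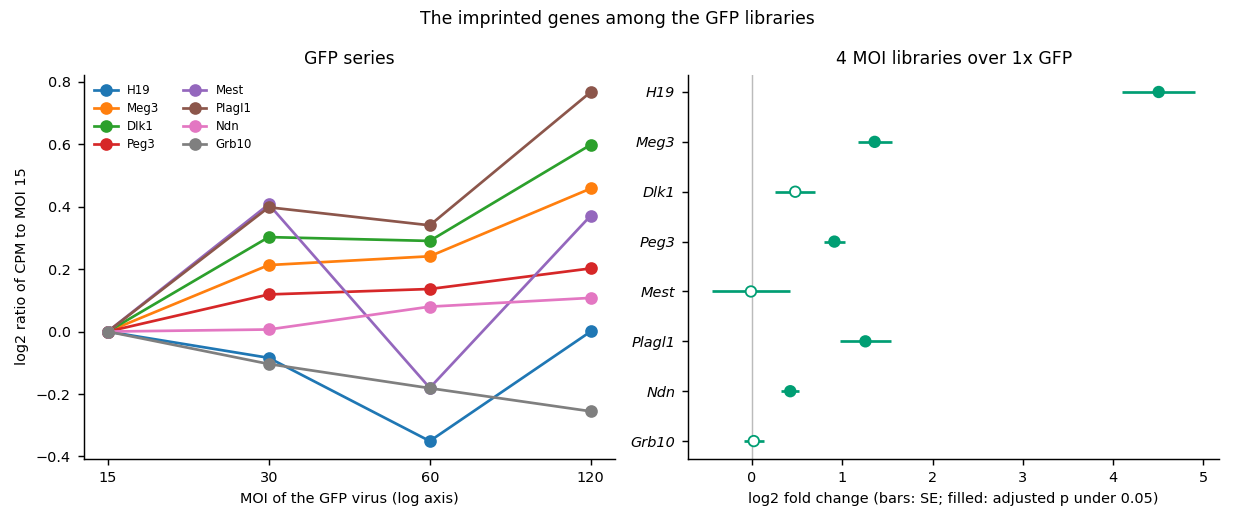
Left, log2 ratio of each gene's CPM to its own value at an MOI of 15 against the MOI of the GFP virus (log axis, 1 library per point). Right, log2 fold change with SE of the 4 MOI libraries over the 1x GFP library, filled where the edgeR adjusted p was under 0.05; H19 lies at 4.50 and Mest at −0.01.

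The Chimera library was set against the second-batch MyoD library that its virus had been balanced against, with 1 library each and hence no test. Plagl1 was the only member past 2-fold, with 249 CPM with Chimera against 103 CPM with MyoD, a ratio of 2.41 (exact 95% counting interval 2.30 to 2.53). Of 13412 genes with at least 50 counts over both libraries, 2.68% were higher and 2.32% lower by at least 2-fold with an interval that leaves out 1. H19 had 690.5 CPM with Chimera and 440.3 CPM with MyoD, a ratio of 1.57 (1.53 to 1.61), the highest H19 levels of the series. Grb10 had a ratio of 1.26 (1.22 to 1.31), Peg3 of 1.18 (1.13 to 1.24) and Meg3 of 1.10 (1.06 to 1.15).

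Ndn was lower with Chimera, at 53.0 CPM against 79.2 CPM, a ratio of 0.670 (0.624 to 0.719). Mest had 32.2 CPM with Chimera and 43.3 CPM with MyoD, a ratio of 0.745 (0.679 to 0.818), and Dlk1 a ratio of 0.871 (0.811 to 0.936). Mest in the Chimera library was thus above both Myf5 libraries of the other table (6.64 and 3.79 CPM). The skeletal muscle markers summed to 778 CPM with Chimera and 2011 CPM with second-batch MyoD, and the fibroblast markers to 23787 and 18856 CPM. Their part in these ratios was not tested.

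Libraries of the 2 batches of MyoD virus were also compared. With mitochondrial genes left out of the totals, second-batch over first-batch 1x MyoD gave ratios of 2.26 for H19 (2.20 to 2.31), 2.53 for Meg3 (2.43 to 2.62), 2.10 for Mest (1.94 to 2.27) and 1.96 for Plagl1 (1.87 to 2.06). Peg3 had 1.44, Ndn 1.33, Grb10 1.26 and Dlk1 1.25. Past 2-fold were thus 3 of the 8, all higher, beside 5.66% of 14406 genes higher and 4.24% lower. These ratios also hold whatever differed in how the 2 tables were made. Against first-batch 1x MyoD, Chimera was past 2-fold higher for 3 of the 8, Plagl1 (4.73), H19 (3.54) and Meg3 (2.79), beside 7.15% of 14456 genes higher and 6% lower. Peg3 had 1.705, Grb10 1.59, Dlk1 1.09 and Ndn 0.890. Mest had a ratio of 1.56 (1.44 to 1.70), so Mest and Dlk1 were lower with Chimera than with second-batch MyoD and higher than with first-batch MyoD.

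**Figure D4:**
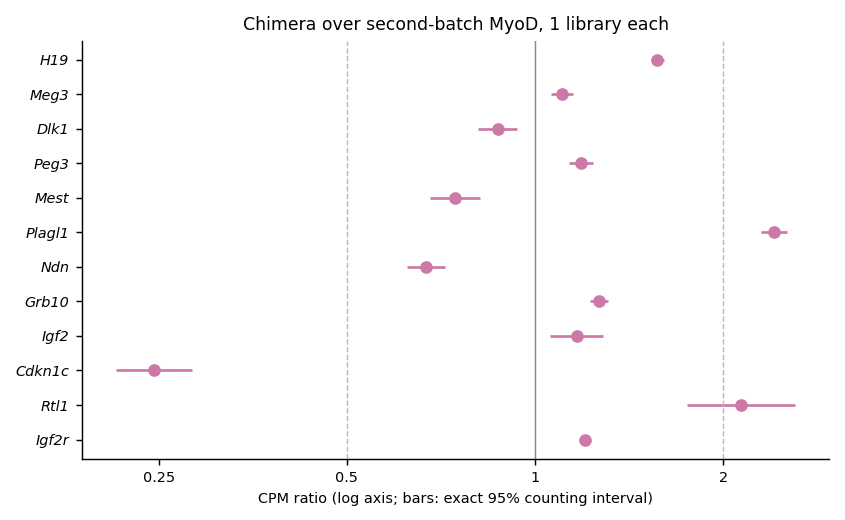
Ratio of CPM in the Chimera library to CPM in the second-batch MyoD library (log axis, bars for exact 95% counting intervals, dashed lines at 2-fold either way) for the 8 genes and 4 further imprinted genes. Plagl1 (2.41) and Rtl1 (2.13) lie above 2-fold and Cdkn1c (0.246) below.

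To compare genes with one another, CPM was divided by the exon length of each gene in the GENCODE vM21 annotation. In MyoD libraries H19 led with a mean of 101 CPM per kb, followed by Grb10 at 26.7 and Ndn at 15.4 CPM per kb, and Mest stood at 7.54 CPM per kb. In GFP libraries Ndn had 22.8 ± 3.14 and Grb10 22.5 ± 1.59 CPM per kb (SD, n = 5), which do not differ beyond their spread. Dlk1 came next in GFP libraries at 15.7 ± 3.37 CPM per kb, then H19 at 10.6 ± 5.74, Peg3 at 10.1 ± 2.52 and Meg3 at 9.92 ± 3.41 CPM per kb, which overlap one another. These means and SDs pool the 1x GFP library with the MOI libraries. For H19 those stood at 1.36 CPM and at 27.1 to 34.6 CPM, and for Meg3 at 77.1 CPM and at 174 to 239 CPM. Plagl1 had 5.38 ± 2.00 and Mest 0.502 ± 0.0855 CPM per kb in GFP libraries. With Myf5, H19 stood at 18.8 CPM per kb, beside Grb10 at 22.0 and Ndn at 16.9 CPM per kb.

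Likeness of pattern was measured as the root mean square difference of centred log2 CPM over the 10 libraries of the first table, among 12434 genes. Mest was most like Cdk5r1 (0.245) and Olfml2b (0.279), against a spread of Mest itself of 1.55 (SD in log2). H19 had no close match, its nearest genes being Igfbp3 at 1.18 and Nes at 1.21 against a spread of 2.26. Plagl1 was nearest to Plxnc1 (0.169) and Shmt1 (0.236), Dlk1 to Itga9 (0.133) and Hdgfl3 (0.141), and Peg3 to Ubn2 (0.0814) and Intu (0.0826). The 2 IDs nearest to Meg3 (0.0741 and 0.109) have no symbol. Nearest to Ndn were Supt20 (0.0479) and Tns1 (0.0494), and to Grb10, Mlst8 (0.0462) and Cct2 (0.0487). No other imprinted gene of the lists was among the nearest genes with a symbol. The 2 IDs nearest to Meg3 could not be checked against the lists.

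Beyond the members, 53 other imprinted genes were listed, of which 48 were matched to a row and 29 were tested. With MyoD, 10 rose and 8 fell against all GFP libraries, beside 21.4% and 20.9% of all genes, with a median log2 fold change of 0.00 beside −0.03 for all genes. Against 1x GFP 8 rose and 7 fell, beside 15.1% and 15.4%. Cdkn1c and Igf2 rose most. Igf2, a growth factor gene that neighbours H19, had 10.3 and 5.01 CPM with 2x and 1x MyoD and 1.58 and 1.04 CPM with 2x and 1x Myf5, against 0.608, 0.448, 0.670 and 1.25 CPM along the MOI series and 0.393 CPM at 1x GFP. Its MyoD libraries lay above all GFP libraries, while those of Myf5 overlapped them. Igf2 rose with MyoD by 3.63 ± 0.40 in log2 (edgeR adjusted p = 0.000324), and by 4.29 ± 0.64 against 1x GFP (adjusted p = 0.00411). With Myf5 it was at 1.06 ± 0.44 (edgeR adjusted p = 0.153).

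Cdkn1c, an inhibitor of cyclin-dependent kinases, had 22.0 and 6.97 CPM with 2x and 1x MyoD and 1.93 and 0.688 CPM with 2x and 1x Myf5, against 0.506, 1.01, 1.03 and 0.349 CPM along the MOI series and 0.540 CPM at 1x GFP. It rose with MyoD by 4.50 ± 0.53 (edgeR adjusted p = 0.000409) and stood at 1.00 ± 0.58 with Myf5 (adjusted p = 0.281). MyoD was above Myf5 for Cdkn1c by 3.50 ± 0.66 (edgeR adjusted p = 0.0272), for Igf2 by 2.57 ± 0.49 (adjusted p = 0.0280) and for Copg2 by 0.68 ± 0.12 (adjusted p = 0.0257), and below it for Atp10a (−0.97 ± 0.22, adjusted p = 0.0404), and Igf2r was at 0.53 ± 0.14 (adjusted p = 0.0623). In that comparison 3 of the 29 were thus higher and 1 lower, beside 4.21% and 1.29% of all genes. All 4 calls were lost without the 2x MyoD, 2x Myf5 or 1x Myf5 library or the one at an MOI of 15, 30 or 60, and that of Atp10a also without the one at 120, with edgeR adjusted p over all alternatives of up to 0.206 for Cdkn1c, 0.228 for Igf2, 0.203 for Copg2 and 0.285 for Atp10a. Among the genes that fell with MyoD, those with the smallest p were Sgce (−0.54 ± 0.07, edgeR adjusted p = 0.000849), Atp10a (−1.40 ± 0.20, adjusted p = 0.000954) and Commd1 (−0.36 ± 0.06, adjusted p = 0.00304). Igf2r, the receptor that clears Igf2, was at 0.29 ± 0.12 with MyoD against all GFP libraries (edgeR adjusted p = 0.0705) and rose against 1x GFP by 0.54 ± 0.13 (adjusted p = 0.0177).

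With Myf5, 2 of the 29 rose and 1 fell against all GFP libraries, beside 3.81% and 2.29% of all genes, and edgeR called none against 1x GFP. The 2 were Peg12 (0.70 ± 0.14, edgeR adjusted p = 0.0261) and Impact (0.26 ± 0.06, adjusted p = 0.0489), and Sgce fell (−0.29 ± 0.07, adjusted p = 0.0499). Peg12 was called in 9 of 16 alternatives and Impact and Sgce in 5 of 16 each, with adjusted p of up to 0.390, 0.423 and 0.421. All 3 calls were lost with the 2x dose term and without the 2x Myf5 library or any 1 of the MOI libraries, those of Impact and Sgce also without the 1x Myf5 library, that of Impact without the untransduced library (adjusted p = 0.0508) and that of Sgce without either MyoD library (0.0519 and 0.0509). In the Chimera library Cdkn1c stood at 10.3 CPM against 42.0 CPM with second-batch MyoD, a ratio of 0.246 (0.213 to 0.282), and Igf2 at 37.3 against 31.97 CPM, a ratio of 1.17 (1.06 to 1.28). Rtl1 and Slc38a4, an amino acid transporter gene, were past 2-fold higher with Chimera, at 2.13 (1.75 to 2.61) and 3.89 (2.23 to 7.20), the second from 66 counts with Chimera and 16 with MyoD. Second-batch MyoD exceeded first-batch 1x MyoD by 6.65 times for Igf2 and 6.29 times for Cdkn1c.

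Among the control libraries, 1 of the 29 was called between GFP and no virus, beside 8.35% of all genes. It was Impact, higher with GFP (0.40 ± 0.09) and called in 11 of 14 alternatives, with log2 differences of 0.36 to 0.45. The call was lost without the library at an MOI of 30 or 60 and under 1 other setting. Igf2, Igf2r and Cdkn1c were at 1.32 ± 0.69, 0.27 ± 0.16 and 1.23 ± 0.91 there (edgeR adjusted p of 0.235, 0.270 and 0.386). In the MOI libraries over 1x GFP 4 rose and 2 fell, beside 12.1% and 12.2% of all genes. Those named by the rule were Cd81 (0.39 ± 0.07, edgeR adjusted p = 0.00696), Airn (1.29 ± 0.25, adjusted p = 0.00921) and Rtl1 (1.497 ± 0.29, adjusted p = 0.00940) higher, and Gnas (−0.32 ± 0.09, adjusted p = 0.0315) and Htr2a (−0.50 ± 0.14, adjusted p = 0.0325) lower. The Gnas call was lost without the library at an MOI of 30 or 60 or the 1x Myf5 library, and that of Htr2a without the one at an MOI of 15 or 30 (edgeR adjusted p of 0.0530 to 0.0732). Igf2, Igf2r and Cdkn1c were at 0.87 ± 0.62, 0.31 ± 0.12 and 0.37 ± 0.91 (edgeR adjusted p of 0.336, 0.0957 and 0.799).

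Per doubling of the MOI, 3 of 27 tested rose and 1 fell, beside 4.06% and 3.42% of all genes. Those that rose were Igf2r (0.08 ± 0.02, edgeR adjusted p = 0.00356), Tnfrsf23 (0.15 ± 0.03, adjusted p = 0.00568) and Rtl1 (0.25 ± 0.05, adjusted p = 0.00779). Gnas fell, at −0.07 ± 0.02 (edgeR adjusted p = 0.0126), Cdkn1c had a slope of −0.08 ± 0.22 (adjusted p = 0.886), and Igf2 was too low to be tested. Without the library at an MOI of 15 the calls of Igf2r, Rtl1 and Gnas were lost, without that at 120 those of Rtl1 and Gnas, and without that at 30 that of Gnas (edgeR adjusted p of 0.0734 to 0.399). DESeq2 did not call Tnfrsf23 (adjusted p = 0.0514) or Rtl1 (adjusted p = 0.0968). For the 2x dose edgeR called 0 of the 29, beside 0.0217% of all genes, and DESeq2 called 2, beside 2.1%. By unadjusted p under 0.05 in edgeR it was 5 of the 29, beside 1528 of 13825 genes. Cdkn1c had a dose difference of 1.61 ± 0.35 (edgeR adjusted p = 0.150), Igf2 of 0.86 ± 0.40 (adjusted p = 0.481) and Igf2r of 0.10 ± 0.14 (adjusted p = 0.889).

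**Figure D5:**
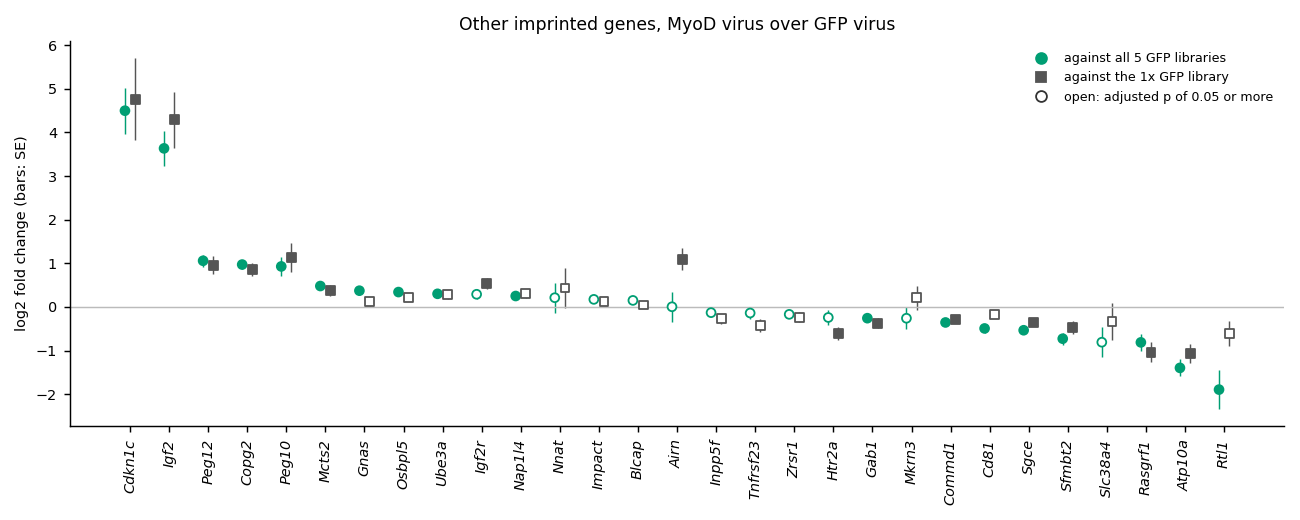
Log2 fold change with SE of the 29 tested imprinted genes outside the set with MyoD, against all 5 GFP libraries (green circles) and against 1x GFP (grey squares), filled where the edgeR adjusted p was under 0.05. Cdkn1c (4.50) and Igf2 (3.63) lie apart at the left and Atp10a and Rtl1 at the right, with Rtl1 filled under one control only.

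Of 15 listed genes of the insulin-like growth factor axis, in which Igf2, Igf2r and the Grb10-damped receptors act, 14 were tested. With MyoD 6 rose and 4 fell against all GFP libraries, beside 21.4% and 20.9% of all genes, and 7 rose and 2 fell against 1x GFP, beside 15.1% and 15.4%. The binding proteins named here were picked after their values were seen. Igfbp5 rose by 2.64 ± 0.17 (edgeR adjusted p = 3.71e-05) and Igfbp3 by 4.32 ± 0.42 (adjusted p = 0.000179), while Igfbp4 fell, at −2.11 ± 0.21 (adjusted p = 0.000213). Igf1 rose by 1.34 ± 0.20 (edgeR adjusted p = 0.00116). With Myf5 2 rose and 1 fell against all GFP libraries, beside 3.81% and 2.29%, namely Igfbp5 (1.31 ± 0.18, edgeR adjusted p = 0.00514) and Igf1 (1.00 ± 0.20, adjusted p = 0.0252) higher and Igfbp4 (−1.42 ± 0.20, adjusted p = 0.00719) lower.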

How the data were processed

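Poly(A) RNA of 12 libraries was read from 2 deposited gene tables. Per the submitters' processing notes, CASAVA 1.8.2 and TopHat2 2.0.8 were used with the build mm9. The sources used here do not give the read counter, its annotation or its use of strand. The first table (10 libraries) holds expected counts as deposited, not whole for 1982 to 2767 genes per library, and these were rounded to whole numbers. The second (Chimera and second-batch MyoD) holds whole counts as deposited, with 4.05% and 4.18% mitochondrial counts, which the first lacks, so the tables were not fitted together. Symbols came from GENCODE vM21 names for 32610 of 37287 IDs.

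In R 4.3.3, edgeR 4.0.16 fitted the 10 libraries with TMM scaling, by two-sided quasi-likelihood tests with Benjamini-Hochberg adjustment over all genes kept (at least 2 libraries had to reach a CPM of 1; threshold 0.05). DESeq2 1.42.0 was an alternative. The method was also run on simulated data, which held no gap between the 1x GFP library and the MOI libraries. That run therefore does not bear on the calls that moved with the 1x GFP library. SE is the log2 fold change divided by the root of the F statistic. Ratios of single libraries carry exact 95% binomial counting intervals, which cover counting error only, and past 2-fold means at least 2-fold with an interval that leaves out 1. No 2 libraries of a group were copies, since their counts gave a chi-square of 1.97 to 133 for each degree of freedom.

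The members and gene lists were chosen with earlier results of these data known. Every member is described. Of the other imprinted genes, the text names in each comparison up to 3 called genes with the smallest p per direction and a mean CPM of at least 5 in a group, and Igf2, Igf2r and Cdkn1c always. The 2 genes nearest in pattern are named for each member with a CPM of at least 1 in all 10 libraries of the first table. Beside the markers given, epithelial markers summed to 0.409 to 2.53 CPM, endothelial to 2.19 to 10.7, macrophage to 10.3 to 16.5, neuron to 6.58 to 27.1 and adipocyte to 1.51 to 8.18 CPM. Alternatives were RLE scaling, DESeq2, no filter on low counts, unrounded counts, 1x GFP as control, a term for the 2x dose, a separate group for the MOI libraries, and leaving out each library.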

Additional observations from a re-analysis of the deposited data

Results flagged for a closer look

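In the 5 GFP libraries, 6 of 23 genes checked had 1 library far from the others for the size of the group (Dixon's test at 95%, which chance passes in about 1 in 20 groups), and in all 6 it was the 1x GFP library, which was the lowest. H19 stood there at 1.36 CPM, Peg3 at 76.6 CPM and Ndn at 64.0 CPM. Among other imprinted genes Sgce had 73.3 CPM, Cd81 320.8 CPM and Airn 4.11 CPM in that library. The genes checked were the members and the other imprinted genes named by the rule. Cd81 and Airn were named because they differed between the MOI libraries and 1x GFP, so their flags restate that choice. All genes share the same 5 libraries, so the rate of 1 in 20 does not apply to the count of flags. The share of all genes flagged in this way was not counted, so 6 of 23 does not set these genes apart. The 1x GFP library also had 81.5 M (mega) counts against 17.9 to 22.4 M in the other GFP libraries, and the part of depth and dose in these values was not tested.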

How the results depend on the processing

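Values that turned in direction and were called or past 2-fold on at least one side were Peg3 with MyoD against 1x GFP (log2 0.62, and −0.15 against all GFP libraries) and Cdkn1c with Chimera against first-batch MyoD (log2 0.63, and −2.02 against the second batch). Members also turned short of the threshold, among them Mest (log2 0.65, and −0.42 against the second batch) and Dlk1 (0.13 and −0.20) with Chimera against first-batch MyoD, Plagl1 (0.65, and −0.42 against all GFP libraries) and Peg3 (0.60 and −0.17) with Myf5 against 1x GFP, and H19 with 1x GFP over no virus (−1.02, and 3.15 with all GFP libraries). With MyoD against GFP 5856 genes were called, with a term for the 2x dose 3489, and with 1 library left out 1833 to 8073. With Myf5 against GFP it was 843 genes, 2143 in DESeq2, 163 with 1x GFP as control, 229 with the dose term, and 57 to 5063 with 1 left out. For MyoD against Myf5 it was 761, 1750 in DESeq2, 1400 with the dose term, 2682 with a separate MOI group, and 2 to 2706 with 1 left out. For GFP against no virus it was 1154, 2512 in DESeq2, 683 with 1x GFP, and 535 to 5142 with 1 left out. For the 2x dose it was 3, 290 in DESeq2, 16 with no filter, 1019 with a separate MOI group, and 0 to 1018 with 1 left out. For the MOI slope it was 1002, 486 in DESeq2, and 338 to 1552 with 1 left out. For the MOI libraries against 1x GFP it was 3369, and 2167 to 4670 with 1 left out. For Chimera 670 genes were past 2-fold, and 1900 against first-batch MyoD. The highest counts with a factor against GFP, and of GFP against no virus, came without the 1x GFP library, and the lowest with a factor against GFP without its 2x library. The causes were not tested. Of 1457 alternative values of named genes, 784 with a library left out and 510 under other settings kept their side of the threshold. Values called in neither fit count among these even where their direction turned. Chimera values count where they stayed inside the counting interval of the main ratio. No paired analysis was possible because the labels give no replicate numbers, beside the fit with the dose term, which sets MyoD and Myf5 against each other within each dose. Depth limits the sums over Rian and Mirg, and 1 library each limits Chimera, no virus and each dose.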
